A study of Mus musculus with 6 samples.

Results

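The 45 genes described here act in DNA damage repair and in the checkpoint that halts the cell cycle when DNA is damaged. They were chosen by name, and all 45 were found among the 24503 gene symbols of the count table. By role they comprise 16 genes of homologous recombination, 8 of the Fanconi pathway, 7 of end joining, 2 of mismatch repair, 5 of excision and single-strand break repair, 6 of the checkpoint and 1 of post-replication repair. RNA was sequenced from primary neural stem cells of mouse embryo cortex at E13.5, grown as neurospheres and then on laminin in the presence of FGF and EGF. Knockout cells came from embryos carrying the Nestin-Cre transgene B6.Cg-Tg(Nes-cre)1Kln/J and Phf2 flox/flox (KO, n = 3 libraries), and control cells from embryos with Phf2 flox/flox and no Cre (WT, n = 3). Both groups thus carry the floxed alleles, Cre is present in KO alone, and the Nestin promoter drives Cre in neural progenitors. The labels do not say whether the libraries of a group came from separate cultures or embryos, so p-values measure the spread between these libraries, which may be technical.

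A double-strand break can be repaired by homologous recombination, which copies the sister chromatid and works in S and G2 phase, or by end joining, which works throughout the cycle. The Fanconi pathway unhooks crosslinks between the strands and hands the resulting break to recombination, while mismatch and excision repair correct single bases and bulky lesions. The kinases Atm and Atr sense breaks and stalled replication forks and signal through Chek2 and Chek1. Dividing neural progenitors of the embryonic cortex depend on these pathways, and the protein encoded by Phf2 belongs to the Jumonji demethylases and acts on methylated lysines of histone tails.

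Total counts per library ranged from 33413444 to 46890314, and the counts of the 45 genes in 1 library from 235 to 14840, so all 45 passed the filter on low counts. Phf2 stood at 56.3, 48.1 and 48.8 CPM (counts scaled to a common library size, with TMM factors) in KO 1, 2 and 3, against 109, 90.4 and 77.8 CPM in WT 1, 2 and 3, with every KO library below every WT library. Its adjusted p was 0.182 with the genotype alone and 0.000123 with the library number as a block, and which exons are floxed is not stated in the labels. The libraries numbered 1 stood apart from those numbered 2 and 3 in both genotypes, with 57.6% of 13683 tested genes differing. KO 2 and KO 3 differed little but beyond counting noise, with a median chi-square per gene of 1.02, against 5.25 for WT 2 and WT 3 and 0.455 from counting alone. All 11 neural stem cell markers passed the filter, from Vim, averaging 4567 CPM in KO and 4591 CPM in WT, down to Pax6, at 42.4 and 35.4 CPM. Nes averaged 1104 CPM in KO and 1046 CPM in WT, and Hes5 ran from 842 to 13246 counts. The oligodendrocyte lineage markers Olig1 and Olig2 averaged 2042 and 1118 CPM in KO, and 2391 and 1198 CPM in WT. With the block, 1 of 11 such markers was called higher in KO and 0 lower, against 3.33% and 6.46% of all genes. In number 1, 8 of the 11 were lower and 1 higher. Of the oligodendrocyte lineage markers 6 of 8 were lower there, of astrocyte markers 4 of 7 (1 higher) and of neuronal markers 3 of 9 (2 higher). Of all genes, 29.4% were lower and 28.2% higher in number 1. Of 7 microglial markers, Aif1, C1qa and C1qb had 0 counts in all 6 libraries and 1, P2ry12, passed the filter, at 15 to 46 counts. Of 7 endothelial and pericyte markers, Cdh5 had 0 counts throughout, and Kdr (41 to 58 counts) and Pecam1 (4 to 23 counts) passed it. With the block, none of these 3 was called by edgeR, with an unadjusted p under 0.05 for P2ry12, or by DESeq2. With the block, 4 of 9 neuronal markers were lower in KO, and 4 of 7 astrocyte markers lower and 1 higher. Of 8 oligodendrocyte lineage markers 2 were higher, Bcas1 and Pdgfra, and Sox10 lower, Bcas1 averaging 119.6 CPM in KO and 52.5 CPM in WT and passing without the block too (adjusted p = 0.0316). Of 4 tested meningeal fibroblast markers 2 were higher and 1 lower. The summed neuronal level spanned 851.7 to 1077 CPM in KO and 796.2 to 1108 CPM in WT, and the astrocyte level 697.1 to 1604 CPM in KO and 555.2 to 1176 CPM in WT. The oligodendrocyte lineage level spanned 3519 to 3759 CPM in KO and 3500 to 4250 CPM in WT, and the fibroblast level 39.8 to 65.1 CPM in KO and 34.5 to 46.1 CPM in WT. Map2 (625.8 CPM in KO, 558.3 CPM in WT) and Gap43 (245.9 and 267.1 CPM) made up most of the neuronal sum. Sparcl1, called higher, averaged 1058 CPM in KO and 496 CPM in WT and was the largest part of the astrocyte sum. Aldh1l1, among the 4 lower, averaged 39.1 CPM in KO and 158.5 CPM in WT. Olig1 and Olig2 made up most of the oligodendrocyte sum. Foxc1 (47.8 CPM in KO, 36.7 CPM in WT) made up nearly all of the fibroblast sum. The sums thus follow few genes. The part of these markers in the results on repair genes was not tested.

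The first question was whether transcripts of repair and checkpoint genes differed between KO and WT cells. Most of the 45 genes were slightly higher in KO, but none differed beyond the spread among libraries when the genotype alone was fitted. In the quasi-likelihood test of edgeR, with p-values adjusted by Benjamini and Hochberg over all 13683 genes and an adjusted p under 0.05 taken as a call, 0 of 45 were called. The same test called 0.0585% of all genes, 0.0292% higher and 0.0292% lower. The lowest adjusted p was 0.999, 0 genes had an unadjusted p under 0.05, and DESeq2 also called 0, against 1.91% of all genes (0.468% higher, 1.45% lower). The fitted log2 fold change of KO over WT was positive for 39 and negative for 6, with a median of 0.13 over the 45 genes and 0.0053 over all genes tested. In bulk RNA, more cells of a kind and more RNA per cell cannot be told apart. No gene had all KO libraries on one side of all WT libraries, where 4.49% of all genes were higher and 6.71% lower in every KO library.

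The same numbers 1 to 3 label libraries in both genotypes, and same-numbered libraries deviated together from their group means. Numbers 2 and 3 were not told apart, though. The deviations of KO 2 correlated at 0.604 with WT 2 and 0.578 with WT 3, and those of KO 3 at 0.633 and 0.580. The pairs numbered 2 and 3 thus rest on the titles alone. With the number entered as a block, Fanci, Blm and Brca2 rose in KO and 0 genes fell. That is 6.67% of the 45 genes, against 3.33% of all genes called higher, while 6.46% of all genes were called lower and 9.79% either way. A further 12 of the 45 had an unadjusted p under 0.05 without passing the adjustment, which makes 15 in all. Over all genes, 3246 of 13683 had an unadjusted p under 0.05 in this fit. The log2 fold change was then positive for 41 and negative for 4, with a median of 0.13, against 0.0068 over all genes. Within the numbered pairs, KO exceeded WT in all 3 pairs for 26 genes (57.8%, against 22.6% of all genes) and WT exceeded KO in all 3 for Fancc alone, against 23.6% of all genes. The median difference of KO minus WT over the 45 genes was 0.04 (log2) in number 1, 0.14 in number 2 and 0.28 in number 3. A test of whether the genotype difference itself differed between number 1 and the others called 0 of 13683 genes in edgeR. Among the 45, Rad54l, Fancd2 and Rad18 had an unadjusted p under 0.05, against 472 of 13683 genes. The fitted term was negative, that is KO over WT was lower in number 1, for 38 of the 45. Its median was −0.13 (log2), against −0.020 over all genes.

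**Figure D1:**
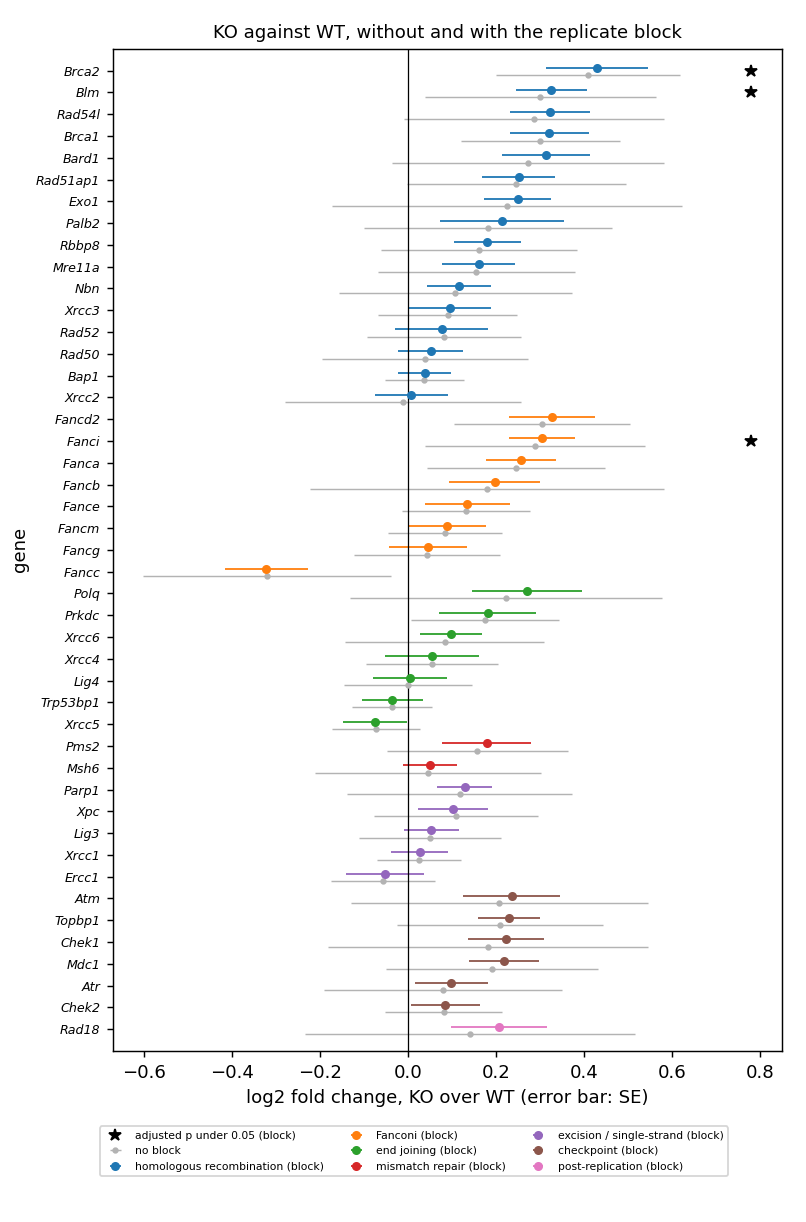
Log2 fold change of KO over WT (horizontal axis, with SE) for each of the 45 genes, grouped by role, fitted without a block (grey) and with the replicate number as a block (coloured). Stars mark Fanci, Blm and Brca2, the genes called with the block; 41 of 45 blocked values lie right of 0.

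Of the 16 homologous recombination genes, 2 were called higher with the block (12.5%) and 0 lower. Of all genes, 3.33% were called higher and 6.46% lower. Blm, a helicase that dissolves recombination intermediates, lay on chromosome 7 (80454733 to 80535119, minus strand, GRCm38). It was measured at 63.5, 44.4 and 45.3 CPM in KO 1, 2 and 3, against 57.0, 35.4 and 32.1 CPM in WT 1, 2 and 3. KO was the higher library in each numbered pair, but KO 2 and KO 3 lay below WT 1, so the groups overlapped. With the block its log2 fold change came to 0.33 ± 0.0807 (SE, adjusted p = 0.0323), and without it to 0.30 ± 0.263 (adjusted p = 0.999).

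Brca2, which acts on resected DNA during homologous recombination, lay on chromosome 5 (150522630 to 150570329, plus strand, GRCm38) and had the largest fitted change of the 45 genes. It stood at 38.5, 30.7 and 34.0 CPM in KO 1, 2 and 3, against 32.0, 26.8 and 19.1 CPM in WT 1, 2 and 3. WT 3 was the lowest library by far, and KO 2 lay below WT 1, so the groups overlapped. Blocking by number gave a log2 fold change of 0.43 ± 0.116 (SE, adjusted p = 0.0454), against 0.41 ± 0.209 (adjusted p = 0.999) without the block. With number 1 against numbers 2 and 3 as the block and WT 3 left out, it was 0.27, so WT 3 moved the value by over 1.5 times.

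The other 14 recombination genes were not called with the block, and all 16 had a positive fitted change, from 0.01 to 0.43 (log2) with a median of 0.20. Rad54l, a DNA translocase of homologous recombination, had 41.3, 29.6 and 27.9 CPM in KO 1, 2 and 3, against 38.9, 21.4 and 20.7 CPM in WT 1, 2 and 3. Its gap lay in numbers 2 and 3, while number 1 was nearly level, and it missed the threshold with adjusted p = 0.0534 with the block. Of its exon bases, 15.4% also belong to exons of Lrrc41, which was not called (adjusted p = 0.783). Brca1, whose product promotes resection and recruits Palb2 and Brca2, missed it with adjusted p = 0.0512 and a log2 fold change of 0.32 ± 0.0896 (SE). Its partner Bard1 had 0.31 ± 0.101.

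The genes that cut back or tether broken ends showed smaller values. Exo1, a resection nuclease that also serves mismatch repair, had 0.25 ± 0.0761 (log2, SE), and Rbbp8, which encodes the resection factor CtIP, had 0.18 ± 0.0768. The 3 genes of the complex that senses breaks, Mre11a, Rad50 and Nbn, had 0.16, 0.05 and 0.12. Palb2, the link between Brca1 and Brca2, had 0.21 ± 0.141, and Rad52, a strand annealing factor, and the recombination genes Xrcc3 and Xrcc2 had 0.08, 0.09 and 0.01. Bap1, a nuclear deubiquitinase, had the highest level per length of the class, averaging 29.5 ± 1.08 CPM per kb of exon in KO and 28.8 ± 1.68 in WT (SD, n = 3). Its libraries stood at 144, 136 and 134 CPM in KO 1, 2 and 3, against 143, 127 and 134 CPM in WT 1, 2 and 3, and it was not called, with adjusted p = 0.765 with the block.

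Among the 8 Fanconi genes, 1 rose with the block (12.5%, against 3.33% of all genes called higher) and 7 did not pass. Fanci encodes the partner of Fancd2 in the complex that is ubiquitinated at a crosslink, and lay on chromosome 7 (79391929 to 79450264, plus strand, GRCm38). It had 60.3, 43.7 and 40.4 CPM in KO 1, 2 and 3, against 52.8, 32.4 and 33.1 CPM in WT 1, 2 and 3. KO was higher in each numbered pair and the groups overlapped through WT 1. Its log2 fold change came to 0.30 ± 0.0752 (SE, adjusted p = 0.0322) with the block and 0.29 ± 0.251 (adjusted p = 0.999) without it. Of its exon bases, 16.0% also belong to exons of Polg, and the labels do not state whether counting used strand. Polg itself was not called, with adjusted p = 0.684 with the block.

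Fancd2 had 39.4, 32.1 and 35.6 CPM in KO 1, 2 and 3, against 37.4, 25.5 and 23.8 CPM in WT 1, 2 and 3, with adjusted p = 0.0640 with the block. The gap was in numbers 2 and 3, where the 2 KO libraries lay above the 2 WT libraries. Fancc, a subunit of the core complex that performs the ubiquitination, was the only one of the 45 genes lower in KO in each numbered pair. It had 14.5, 8.79 and 9.28 CPM in KO 1, 2 and 3, against 18.0, 11.2 and 11.5 CPM in WT 1, 2 and 3, a log2 fold change of −0.32 ± 0.0936 (SE, adjusted p = 0.0588) with the block. Both number 1 libraries were the highest of their genotype, so the groups overlapped. Of its exon bases, 18.6% are shared with other annotated genes, among them 2010111I01Rik. That gene averaged 2.74 CPM in KO and 3.35 CPM in WT. It had a log2 fold change of −0.25 with the block, the same direction as Fancc, and was not called (adjusted p = 0.420). The remaining core subunits Fanca, Fancb, Fance and Fancg had 0.26, 0.20, 0.13 and 0.05 (log2), and Fancm, a translocase that brings the core complex to DNA, had 0.09. Fance, the Fanconi gene of highest level per length, stood at 30.2, 26.8 and 24.5 CPM in KO 1, 2 and 3, against 26.2, 21.3 and 26.95 CPM in WT 1, 2 and 3, with no common direction in the pairs.

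**Figure D2:**
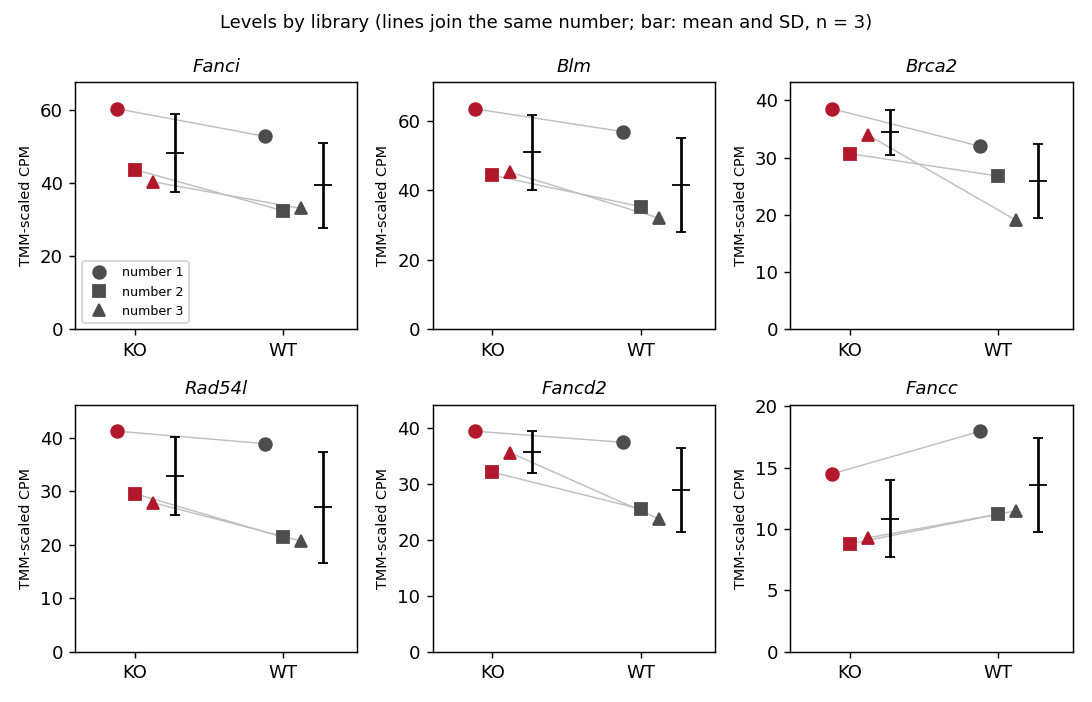
TMM-scaled CPM (vertical axis, from 0) of Fanci, Blm, Brca2, Rad54l, Fancd2 and Fancc in the 3 KO libraries (left) and the 3 WT libraries (right); grey lines join libraries of the same number, and bars give the mean and SD. For Fanci, KO 1 and WT 1 stand at 60.3 and 52.8 CPM, above the 4 other libraries, and the KO end of each line is the higher; for Fancc the WT end of each line is the higher.

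Whether a gene passed depended on how the shared number was handled. With number 1 against numbers 2 and 3 as the block, Blm, Fanci, Rad54l and Exo1 rose and Fancc fell, 5 of 45 (10.6% of all genes were called, 3.73% higher and 6.83% lower). In numbers 2 and 3 alone, 2 genes rose, Rad54l and Fancd2, against 1.82% of all genes higher, 3.57% lower and 5.4% either way, and Fanci and Blm had adjusted p = 0.0533 and 0.0501. With KO 2 and KO 3 summed as 1 library and number 1 as the block, edgeR called 0 of 45. Of all genes, 4.94% were called (1.13% higher, 3.8% lower). An unadjusted p under 0.05 was found for 12 of 45, against 2368 of 13930 genes tested. Keeping that block and leaving out KO 2 or KO 3 likewise called 0, against 4.25% and 4.45% of all genes called. An unadjusted p under 0.05 was then found for 10 and 11, against 2271 of 13884 and 2287 of 13877 genes tested. Leaving out WT 3 called 14 of 45, when 3045 of 13842 genes tested were called, and leaving out WT 2 called 3, against 9.52% of all genes. DESeq2 with the replicate block called 6, all higher: Brca1, Brca2, Rad54l, Blm, Fancd2 and Fanci, against 3.75% of all genes higher, 5.42% lower and 9.17% either way. With upper-quartile scaling and the block, Blm and Fanci rose and Fancc fell, against 2.39% of all genes higher, 7.18% lower and 9.57% either way.

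The 6 checkpoint genes all had positive values, with 0 called with the block by edgeR or DESeq2 and 3 at an unadjusted p under 0.05 in edgeR. Over all genes, edgeR with the block called 9.79% and DESeq2 9.17%, and 3246 of 13683 had an unadjusted p under 0.05 in edgeR. Topbp1, which activates the Atr kinase, stood at 272, 195 and 203 CPM in KO 1, 2 and 3, against 258, 166 and 156 CPM in WT 1, 2 and 3. Blocked, its log2 fold change was 0.23 ± 0.0712 (SE, adjusted p = 0.0747). KO was higher in each pair, and WT 1 exceeded KO 2 and KO 3. Mdc1, a scaffold that holds Atm at breaks, had the highest level per length of the class, 23.9 ± 4.30 CPM per kb in KO and 20.9 ± 6.35 in WT (SD, n = 3). It had 214, 159 and 159.5 CPM in KO 1, 2 and 3, against 208, 141 and 117 CPM in WT 1, 2 and 3, with adjusted p = 0.124 with the block. The kinases Atm, Atr, Chek1 and Chek2 had 0.23, 0.10, 0.22 and 0.08 (log2), with adjusted p from 0.147 to 0.571.

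None of the 7 end joining genes was called with the block by edgeR or DESeq2, against 9.79% and 9.17% of all genes. Their median log2 fold change was 0.05, and 0 had an unadjusted p under 0.05 in edgeR, against 3246 of 13683 genes. Polq, the polymerase of the alternative end joining route, had the lowest p. It stood at 30.4, 18.4 and 20.5 CPM in KO 1, 2 and 3, against 29.6, 17.3 and 12.5 CPM in WT 1, 2 and 3, with adjusted p = 0.224. The gap was almost all in number 3, where WT 3 was the lowest library. Xrcc5, which encodes the Ku80 subunit that caps broken ends, stood at 41.3, 41.6 and 36.8 CPM in KO 1, 2 and 3, against 42.9, 41.5 and 41.5 CPM in WT 1, 2 and 3, and had the highest level per length of the class. Its partner Xrcc6 (Ku70) had 0.10, the kinase gene Prkdc 0.18, the ligase gene Lig4 and its cofactor Xrcc4 0.0039 and 0.05, and Trp53bp1, which shields ends from resection, −0.04 (log2, KO over WT, with the block).

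In mismatch, excision and post-replication repair, 0 of 8 genes were called with the block by edgeR or DESeq2, against 9.79% and 9.17% of all genes. In edgeR 0 had an unadjusted p under 0.05, against 3246 of 13683 genes. Parp1, which senses single-strand breaks, had the highest level per length of all 45 genes, 49.3 ± 12.004 CPM per kb in KO and 45.5 ± 13.4 in WT (SD, n = 3). It stood at 334, 222 and 227 CPM in KO 1, 2 and 3, against 323, 199 and 201 CPM in WT 1, 2 and 3, with a log2 fold change of 0.13 ± 0.0623 (SE) and adjusted p = 0.248. Both number 1 libraries were far above the rest, and the genotypes were close within each number.

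Msh6, a mismatch recognition subunit, had 149.7, 96.5 and 99.1 CPM in KO 1, 2 and 3, against 148, 94.4 and 92.3 CPM in WT 1, 2 and 3. Pms2, its downstream nuclease partner, had 20.8, 17.7 and 17.8 CPM in KO 1, 2 and 3, against 21.9, 14.9 and 13.8 CPM in WT 1, 2 and 3. Neither passed, with adjusted p = 0.681 and 0.327. Rad18, a ubiquitin ligase for stalled forks, had 32.1, 20.6 and 20.2 CPM in KO 1, 2 and 3, against 34.7, 16.6 and 14.8 CPM in WT 1, 2 and 3. KO was lower than WT in number 1 and higher in numbers 2 and 3, and adjusted p was 0.291 with the block. The single-strand break genes Xrcc1 and Lig3 and the nucleotide excision genes Ercc1 and Xpc had 0.03, 0.05, −0.05 and 0.10 (log2).

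The number of a library separated the repair genes far more than the genotype did. With the genotype as a covariate, 34 of 45 genes were higher and 2 lower in number 1 than in numbers 2 and 3 (75.6% and 4.44%, against 28.2% and 29.4% of all genes tested). The median log2 difference was 0.53 over the 45 genes and −0.015 over all genes. By role, 15 of 16 recombination genes, 6 of 6 checkpoint genes, 2 of 2 mismatch repair genes and Rad18 were higher, as were 5 of 8 Fanconi genes (1 lower), 3 of 7 end joining genes and 2 of 5 excision genes (1 lower). Summed over the 45 genes, KO 1, 2 and 3 held 2760, 2098 and 2118 CPM, against 2672, 1912 and 1799 CPM in WT 1, 2 and 3. The number 1 library was thus the highest in each genotype.

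Exo1 had the largest difference by number, 1.00 ± 0.0676 (log2, SE), with adjusted p = 7.45e-06. It stood at 51.0, 27.3 and 26.9 CPM in KO 1, 2 and 3, against 46.3, 21.8 and 21.9 CPM in WT 1, 2 and 3. Fancb, a core complex subunit, had 0.99 ± 0.0975, Rad18 0.91 ± 0.111, Chek1, the kinase downstream of Atr, 0.90 ± 0.0857 and Polq 0.82 ± 0.132. Within one complex, Xrcc6 differed by 0.54 ± 0.0656, while its partner Xrcc5 differed by 0.06 ± 0.0712 and was not called. Fancg and Xpc, a sensor of bulky lesions, were the genes lower in number 1, by −0.34 ± 0.0832 and −0.41 ± 0.0822. Trp53bp1 and Ercc1 differed by 0.01 and −0.02 and were not called.

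**Figure D3:**
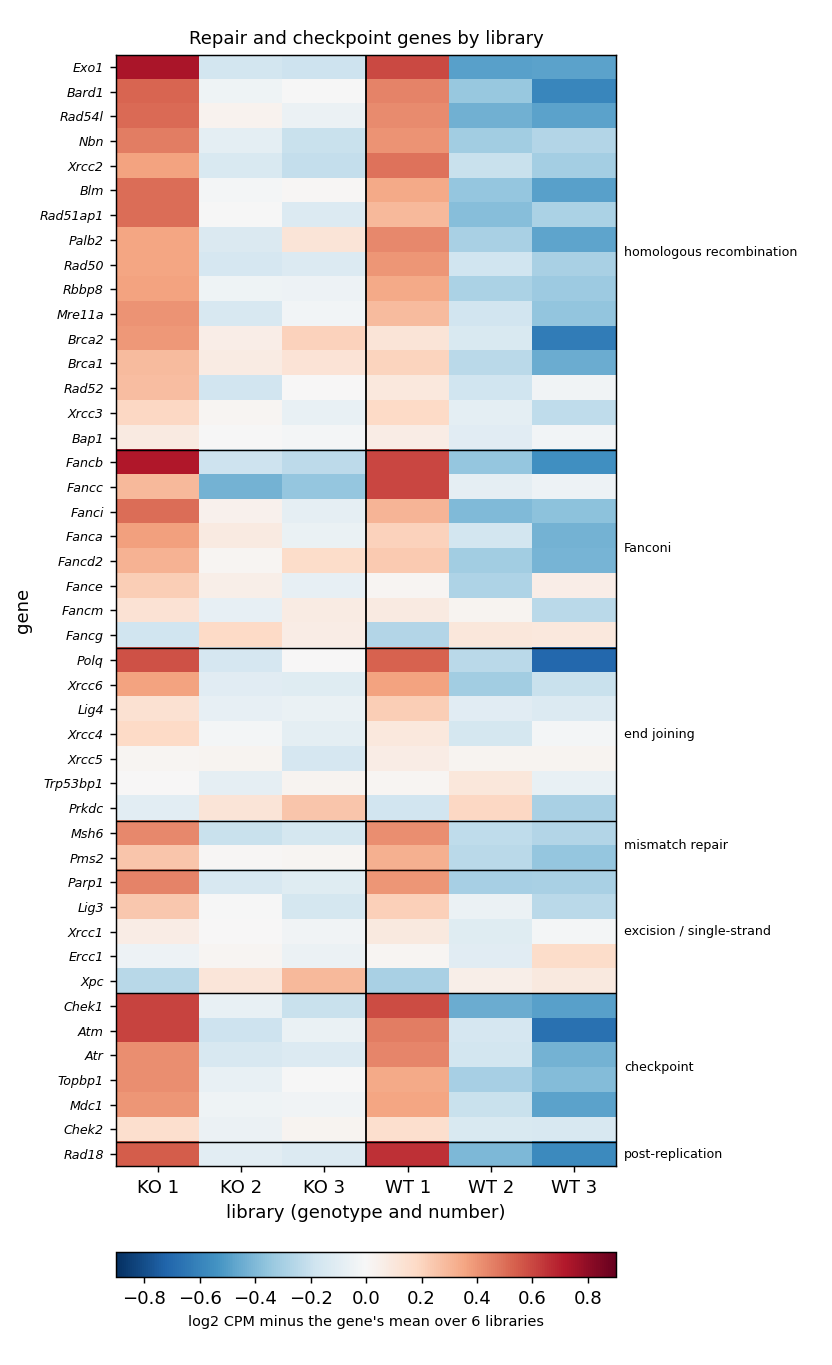
Log2 CPM of each of the 45 genes in each library, minus the gene's mean over the 6 libraries (red above, blue below), with KO libraries left of WT libraries and genes grouped by role. The columns KO 1 and WT 1 are red in most rows, with Exo1, Fancb and Chek1 among the deepest; Fancg and Xpc run the other way, and WT 3 holds the deepest blue, in Polq, Atm and Brca2.

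Genes of DNA replication and cell division moved with the repair genes in both comparisons. All 44 genes of that list, among them Mki67, Pcna and the Mcm helicase subunits, were higher in number 1 (median 0.63, log2). Of all genes, 28.2% were called higher there. With the replicate block 14 of 44 rose in KO and 0 fell (31.8%, against 3.33% of all genes called higher), with a median of 0.24 (log2). Without the block edgeR and DESeq2 called 0, and 0 had an unadjusted p under 0.05. Their summed level was 9459, 6684 and 6746 CPM in KO 1, 2 and 3, against 8923, 5330 and 5261 CPM in WT 1, 2 and 3, again with the number 1 library highest in each genotype. With KO 2 and KO 3 summed and number 1 as the block, 0 of 44 were called by edgeR. An unadjusted p under 0.05 was found for 26 of 44, against 2368 of 13930 genes tested. Uhrf1, which reads hemimethylated DNA behind the fork, rose by 0.36 ± 0.0747 (log2, SE), and the mitotic kinase gene Aurkb by 0.36 ± 0.0758. The part of these genes in the differences of the repair genes was not tested.

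**Figure D4:**
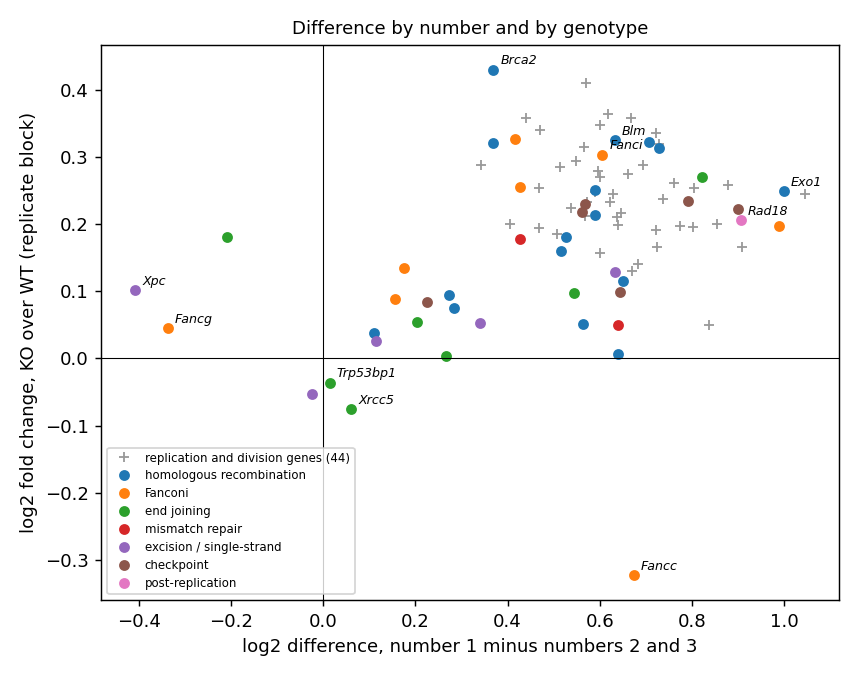
Each point is a gene, placed by its log2 difference of number 1 minus numbers 2 and 3 (horizontal) and its log2 fold change of KO over WT with the replicate block (vertical), coloured by role, with 44 replication and division genes as grey crosses. Most recombination and checkpoint genes lie in the upper right among the crosses, Xrcc5 and Trp53bp1 near the centre, and Fancc alone far below 0, at −0.32.

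Of 92 tested repair and checkpoint genes outside the 45, 4 rose in KO with the block and 0 fell (4.35%, against 3.33% of all genes called higher), while DESeq2 with the block called 7 higher. Without the block edgeR and DESeq2 called 0, with an unadjusted p under 0.05 for 2 in edgeR, and with KO 2 and KO 3 summed and number 1 as the block edgeR called 1. Neil3, a glycosylase of replicating cells, rose by 0.54 ± 0.0989 (log2, SE), with 21.97, 20.5 and 20.1 CPM in KO 1, 2 and 3, against 17.7, 13.2 and 12.4 CPM in WT 1, 2 and 3. Here every KO library exceeded every WT library. Dclre1c, which encodes the end joining nuclease Artemis, rose by 0.51 ± 0.117, Rad54b, a relative of Rad54l, by 0.40 ± 0.102, and the replicative ligase gene Lig1 by 0.27 ± 0.0729. By number, 52 of the 92 were higher and 13 lower in number 1 (56.5% and 14.1%, against 28.2% and 29.4% of all genes).

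Because most of these genes differed together by number, their promoters were read for motifs of cell cycle genes. RefSeq promoters on GRCm38.p6, from 250 bases before to 50 after the start, were matched by symbol for 37 of the 45 genes. The E2F letters TTTCCCGC or TTTGGCGC, on either strand, occurred in 7 of 37 (18.9%), against 1.8% of 27025 genes with a promoter and 3.4% of the 10357 that were tested. The 7 are Brca2, Bard1, Fancg, Xrcc6, Msh6, Chek2 and Mdc1, and 6 of them were higher in number 1, the exception being Fancg, which was lower. Most matched genes were higher in number 1 in any case, 28 of 37. The E2F letters occurred in 6 of these 28 (21.4%) and in 1 of the 9 others (11.1%), and this difference was not tested. The CHR letters TTTGAA or TTCGAA, on either strand, occurred in 3 of 37 (8.1%), against 21.7% of all and 15.8% of tested genes, and the CCAAT box, CCAAT on either strand, in 20 of 37 (54.1%), against 41.1% and 43.1%. Only the exact letters given were searched, so genes without them are not shown to lack an E2F site. Nor does the search show that a factor binds at these letters.

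The stretches shown are the parts of 5 promoter windows outside annotated exons: 4 with E2F letters, and Blm, which rose in KO with the block and has none. Capitals mark the E2F letters and, in Bard1, also the CHR letters TTTGAA. They run 5′ to 3′ on the gene's strand, chr5:150522371-150522629 (plus) for Brca2, chr1:71103147-71103222 (minus) for Bard1, chr5:110839778-110839978 (plus) for Chek2, chr17:35841248-35841514 (plus) for Mdc1 and chr7:80535120-80535248 (minus) for Blm. The E2F letters begin 168, 209, 152 and 16 bases before the start in Brca2, Bard1, Chek2 and Mdc1, on the opposite strand in Brca2 and Chek2, where they read GCGGGAAA.
Brca2: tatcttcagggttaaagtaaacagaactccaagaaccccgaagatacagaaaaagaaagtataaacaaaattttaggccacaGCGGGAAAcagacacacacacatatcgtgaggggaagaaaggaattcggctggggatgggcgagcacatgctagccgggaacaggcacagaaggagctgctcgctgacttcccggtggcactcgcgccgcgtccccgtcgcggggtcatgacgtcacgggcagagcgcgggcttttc
Bard1: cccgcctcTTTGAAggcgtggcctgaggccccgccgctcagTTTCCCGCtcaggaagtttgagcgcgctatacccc
Chek2: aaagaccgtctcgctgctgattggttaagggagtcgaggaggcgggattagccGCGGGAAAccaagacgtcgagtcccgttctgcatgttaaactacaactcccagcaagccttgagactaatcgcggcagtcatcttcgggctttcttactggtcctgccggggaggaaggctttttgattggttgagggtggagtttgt
Mdc1: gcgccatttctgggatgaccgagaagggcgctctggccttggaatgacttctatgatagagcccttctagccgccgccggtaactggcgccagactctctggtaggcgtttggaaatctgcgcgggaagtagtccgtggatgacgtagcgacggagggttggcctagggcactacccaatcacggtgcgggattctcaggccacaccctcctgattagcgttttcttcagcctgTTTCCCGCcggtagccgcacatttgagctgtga
Blm: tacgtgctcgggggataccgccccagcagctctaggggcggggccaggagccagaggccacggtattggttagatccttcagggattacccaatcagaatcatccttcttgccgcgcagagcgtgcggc

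Of these 5 genes, Brca2 and Blm were called higher in KO with the block, while Bard1, Mdc1 and Chek2 were not, with adjusted p = 0.0828, 0.124 and 0.571. All 5 were higher in number 1, by 0.37 ± 0.128 for Brca2, 0.73 ± 0.103 for Bard1, 0.23 ± 0.0716 for Chek2, 0.56 ± 0.0863 for Mdc1 and 0.63 ± 0.0777 for Blm (log2, SE).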

How the data were processed

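The values deposited by the authors are raw counts, whole numbers per gene symbol, for 6 RNA-seq libraries. Their processing notes name RSEM, Bowtie2, cutadapt, Trim Galore and FastQC with build mm10 (per the submitters' processing notes), while versions, annotation, strand setting and rounding are not given in the sources used. Groups and numbers came from the sample titles. Counts were tested as deposited in R 4.3.3 with edgeR 4.0.16 (filterByExpr by group, TMM, robust quasi-likelihood fit, two-sided, Benjamini-Hochberg over 13683 genes); SE is the log2 fold change over the square root of F. DESeq2 1.42.0 was an alternative. The code was tested on simulated data. Deviations from group means correlated at 0.854, 0.604 and 0.580 for the 3 same-numbered KO and WT libraries, all over the limit of 0.1, so the number was used as a block; KO 3 with WT 2 gave 0.633, so numbers 2 and 3 are not told apart. Levels per kb, coordinates and shared exons use GENCODE vM21 (GRCm38). Described in full were genes called in either fit and, per role, the gene of lowest p with the block and of highest CPM per kb; Rad54l, Brca1, Fancd2, Fancc, Exo1 and others were added after their values were seen. The genes and lists were chosen with earlier results of these data known.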

Additional observations from a re-analysis of the deposited data

How the results depend on the processing

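The count of repair genes called between KO and WT, 0 without a block, became 3 with the replicate block, 5 with number 1 as the block, 2 in numbers 2 and 3 alone, 3 with upper-quartile scaling and the block (Blm and Fanci higher, Fancc lower) and 6 with DESeq2 and the block. Leaving out 1 library called 0 without a block and 0 to 14 with number 1 as the block. The count stayed at 0 under RLE or upper-quartile scaling, without a filter, by DESeq2 and with KO 2 and KO 3 summed, with or without number 1 as the block. The median log2 fold change without a block, 0.13, ranged from −0.002 without KO 1 to 0.377 without WT 1, fits that hold number 1 in 1 genotype only. Leaving out 1 library turned the sign of 26 of the 45 fold changes without a block in at least 1 of 6 such fits. Signs turned for 17 genes without KO 1, 15 without WT 3, 10 without WT 2 and 3 in each of the other fits. Among the 26 were Chek1, Atm and Exo1, and Exo1 was called higher with number 1 as the block. Of the genes described by rule, Bap1 ranged from −0.001 to 0.092, Polq from −0.026 to 0.645, Msh6 from −0.189 to 0.315, Parp1 from −0.101 to 0.399 and Rad18 from −0.111 to 0.644. The 36 genes called by number (24 without WT 1) ranged from 24 to 40 when 1 library was left out, and were 32 to 36 under other scalings, without a filter or by DESeq2. The SE of Blm and Fanci, 0.263 and 0.251 without the block against 0.0807 and 0.0752 with it, limits what 3 libraries per genotype can show.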

Other observations

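Targets of p53, the transcription factor that acts downstream of the checkpoint kinases, were lower more often than higher in KO. With the replicate block 6 of 20 fell in KO and 1 rose, where 6.46% of all genes were called lower and 3.33% higher. The cytokine gene Gdf15 had 15.4, 22.9 and 21.6 CPM in KO 1, 2 and 3, against 23.1, 37.8 and 43.4 CPM in WT 1, 2 and 3, a log2 fold change of −0.77 ± 0.0933 (SE). Cdkn1a, the cyclin-dependent kinase inhibitor p21, had 385, 412 and 410 CPM in KO 1, 2 and 3, against 485, 488 and 534 CPM in WT 1, 2 and 3, a change of −0.32 ± 0.0648 with adjusted p = 0.0125, and its groups did not overlap. Ddit4l, Ccng1, Fas and Perp also fell, and Plk2 rose. Without the block edgeR called 0 of the 20, with 7 at an unadjusted p under 0.05, and DESeq2 called 1, lower. With KO 2 and KO 3 summed and number 1 as the block edgeR called 2, both lower.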
